A study of Homo sapiens with 4 samples.

Results

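The cytosolic small-subunit ribosomal proteins were examined in RNA of H1299 cells after mercury chloride (HgCl2) treatment. Members were the transcripts of protein-coding genes named RPSA, FAU, RACK1 or RPS2 to RPS29, including forms with an added X, A, L or Y, and the S6 kinases and pseudogenes were left out. This gave 347 transcripts of 36 genes among the 227368 transcripts that the tables list. H1299 cells are a line from a human lung carcinoma of the non-small-cell kind. RNA was taken after 48 h from cells treated with 5 μM HgCl2 and from control cells treated with the solvent, 0.6% EtOH. The treatment text of the labels gives 5 μM for all 4 samples, whereas the methods of the study give the controls solvent only. Each group has 2 columns of counts, labelled as replicates 1 and 2, and poly-A RNA was counted on each annotated transcript.

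The small (40S) subunit of the cytosolic ribosome holds one ribosomal RNA and a set of proteins that each come from their own gene. It binds the mRNA and checks the pairing of codon and tRNA, and it is divided into a head, a body and a platform. Ribosomal protein genes are short and highly transcribed, many carry small nucleolar RNAs in their introns, and their mRNAs begin with a pyrimidine tract through which their translation is controlled as a group. In this annotation, 10 of the 36 genes enclosed 22 small nucleolar RNA genes on the same strand.

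The columns were compared before use. Over transcripts with at least 20 counts in their sum, the difference of the EtOH columns had a variance 0.505 times that of independent counting, and that of the HgCl2 columns 0.516 times. For member transcripts these ratios were 0.553 and 0.646, and between an EtOH and an HgCl2 column the ratio for members was 14.2. The study describes the replicates as independent, but the columns of 1 group differed less than sampling noise would make them. Both columns of a group therefore count as 1 sample. Each comparison below sets 1 sample against 1 sample, has no replicate check and carries no p-value. Intervals are 95% Clopper-Pearson intervals from the mean counts of the columns and cover counting error only. A transcript was called when its log2 fold change in the edgeR fit was at least 1 in either direction and this interval excluded equality. Column totals were between 4720978 and 5053120. Transcripts with a count numbered 33148 and 33106 in the EtOH columns but 25432 and 25531 in the HgCl2 columns, and the part of this difference in the lower calls of members with few counts was not tested. Of marker genes of carcinoma cells, VIM had 501 to 628 counts a column, KRT18 18 to 31, and KRT19 was at 0. KRT8 had 53 and 58 counts in EtOH and 4 and 4 in HgCl2, a difference whose part in the results below was not tested. Of markers of other cell types, PTPRC and ALB were at 0, PECAM1 had at most 5 counts and COL1A1 at most 18. In bulk RNA, less of a transcript per cell cannot be told apart from fewer cells that carry it.

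Counts of the small-subunit genes were few and lay mainly on transcripts with stretches that tell them apart. Only 87 of the 347 transcripts had a count in any column, and 260 were at 0. A base was taken as a transcript's own when no other listed transcript covers it on either strand. Of the 177 member transcripts with no own base, 4 had a count. The 85 transcripts with at least 150 own bases in a row, of which 60 had a count, held 93.6% of the member counts. The canonical transcript, which the annotation chooses to represent a gene, was at 0 in 23 of the 36 genes, and 9 of the 36 canonical transcripts have no own base. Each value therefore describes 1 transcript, not how much mRNA the gene made. RPS15, RPS21, RPS25, RPS4Y1, RPS4Y2 and FAU, which encodes a ubiquitin-like protein fused to RPS30, had no count on any transcript. This allows up to 3 counts in each column. The canonical transcripts of FAU and RPS25 have 0 own bases, that of RPS15 has 1 and that of RPS21 has 20, so their zeros do not show absent mRNA. Those of RPS4Y1 and RPS4Y2 have 338 and 848.

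The longest own stretches of 5 called retained-intron members are shown because they are intron sequence that no other listed transcript covers. Positions of reads were not available, so the counts may also lie on other bases of these transcripts. They are read from the transcript sequences of GENCODE 44 (GRCh38), 5′ to 3′, each up to 200 bases from the start of the longest own stretch. Capitals mark the first 2 bases (donor) or the last 2 bases (acceptor) of an intron of the canonical transcript.
RPS13 ENST00000531908 (chr11:17075624-17075778, - strand): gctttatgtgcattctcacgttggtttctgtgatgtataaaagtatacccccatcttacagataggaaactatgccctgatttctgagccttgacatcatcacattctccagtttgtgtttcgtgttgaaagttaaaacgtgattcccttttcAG
RPSA ENST00000478027 (chr3:39408196-39408388, + strand): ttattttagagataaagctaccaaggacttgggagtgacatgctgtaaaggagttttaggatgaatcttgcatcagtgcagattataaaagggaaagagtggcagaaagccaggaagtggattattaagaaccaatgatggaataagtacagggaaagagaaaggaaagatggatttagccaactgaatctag
RPS24 ENST00000478655 (chr10:78037305-78037438, + strand): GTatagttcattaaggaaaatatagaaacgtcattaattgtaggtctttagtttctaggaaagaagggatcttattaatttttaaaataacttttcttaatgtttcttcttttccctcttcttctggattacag
RPS27 ENST00000392558 (chr1:153991224-153991423, + strand): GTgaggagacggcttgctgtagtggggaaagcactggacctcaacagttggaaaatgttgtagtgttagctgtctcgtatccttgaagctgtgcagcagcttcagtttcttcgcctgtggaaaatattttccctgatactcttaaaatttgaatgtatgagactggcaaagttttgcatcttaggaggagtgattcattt
RPS3 ENST00000529173 (chr11:75401734-75401933, + strand): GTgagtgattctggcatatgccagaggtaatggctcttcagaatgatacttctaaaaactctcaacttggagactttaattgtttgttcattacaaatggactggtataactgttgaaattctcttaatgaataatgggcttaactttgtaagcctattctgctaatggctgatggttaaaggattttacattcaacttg
These stretches lie in intron 3 of 5 of RPS13, intron 2 of 6 of RPSA, intron 4 of 5 of RPS24, intron 2 of 3 of RPS27 and intron 3 of 6 of RPS3. The G+C content of the whole stretches was between 27.6% and 42.8%. None of them overlaps an annotated UTR of its gene.

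Most member counts were on transcripts with an intronic own stretch in both groups, and more so under HgCl2. Retained introns held 57.6% of the member counts in EtOH (exact binomial 95% interval 55.9% to 59.3%) and 63.4% in HgCl2 (61.7% to 65.0%). Protein-coding transcripts held 35.9% (34.2% to 37.5%) and 30.1% (28.5% to 31.7%), a difference of -5.77 percentage points. Transcripts of coding genes without a defined coding sequence held 6.26% and 6.40%. Nonsense-mediated decay transcripts held 8 and 10 counts in EtOH against 4 and 6 in HgCl2, over 29 listed transcripts. The interval of the share excludes the other group's share for retained introns and for protein-coding transcripts. When placed by position rather than type, transcripts whose longest own stretch lies within an intron of the canonical transcript held 75.01% of the counts in EtOH and 85.6% in HgCl2. Those with the stretch in an exon of the canonical transcript held 16.9% and 11.6%. Transcripts that extend downstream of the canonical end held 6.71% and 1.98%, and their summed counts were 210 and 223 in EtOH against 68 and 65 in HgCl2. Several protein-coding transcripts have an intronic own stretch, so the split by place and the split by type do not coincide. Such shares of counts were not computed over all coding genes. Of retained introns of all coding genes with a mean of at least 30 counts in a group, 39.8% were called higher and 11.2% lower. For members these were 22.2% and 11.1%, so the shift is not shown to be particular to them.

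**Figure D1:**
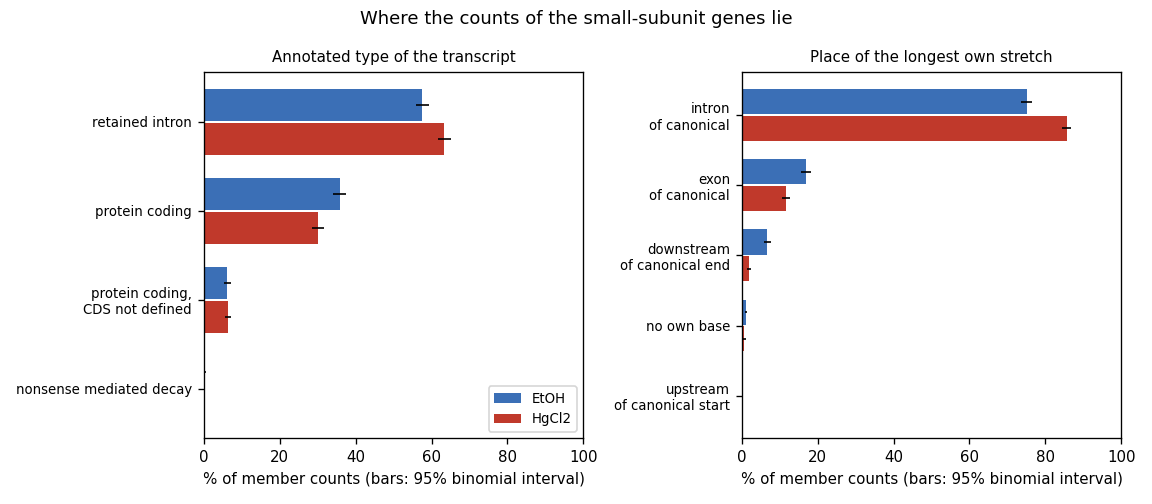
Share of the counts on small-subunit ribosomal protein genes by annotated transcript type (left) and by the place of the longest own stretch against the canonical transcript (right), in percent, for EtOH (blue) and HgCl2 (red), with 95% binomial intervals of counting error. Retained introns hold 57.6% of the counts in EtOH and 63.4% in HgCl2, and transcripts with the stretch within a canonical intron 75.01% and 85.6%.

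Summed over all members, the counts were 3202 and 3249 in EtOH against 3401 and 3314 in HgCl2. As CPM (counts scaled to a fixed total) of the column totals, the group means were 638 and 711 CPM, a log2 ratio of 0.16 (0.09 to 0.23). Over totals without the mitochondrial genome it was 0.029. Genes differed in direction beneath this sum. RPS3, RPSA, RPS6, RPS3A and RPS13 had higher mean sums in HgCl2 than in EtOH, and RPS24, RPS20, RPS19, RPS14, RPS27L and RPS15A had lower ones. Among the 28 genes with a transcript tested in the fit, 1 was called higher on its summed counts (RPS13, log2 1.27, interval 0.98 to 1.58) and 7 were called lower. The lower ones were RPS15A (-3.28), RPS9 (-1.77), RPS19 (-1.72), RPS27L (-1.64), RPS27 (-1.50), RPS20 (-1.25) and RPS14 (-1.14), each named after its values were seen. The tested transcripts of RPS15A and RPS27L had a mean above 1 FPKM in EtOH alone, so the choice of genes favoured lower values for both. Of all 11520 genes tested this way, 12% were called higher and 17.6% lower.

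**Figure D2:**
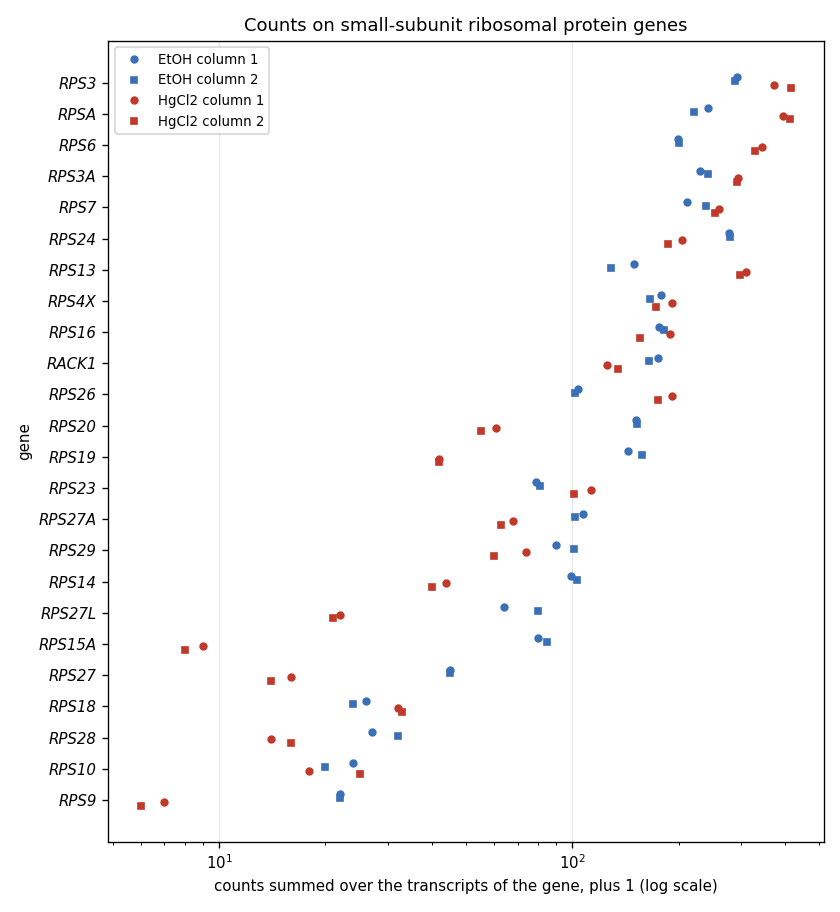
Counts summed over the listed transcripts of the 24 small-subunit genes whose mean sum reached 20 counts in a group, plus 1, on a log axis, for the EtOH columns (blue) and the HgCl2 columns (red). RPS15A has 79 and 84 counts in EtOH and 8 and 7 in HgCl2, while RPS13 has 149 and 128 in EtOH and 309 and 297 in HgCl2.

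Per transcript, 63 members of 28 genes passed the filter (a group mean of more than 1 FPKM) and entered the fit, which held 17547 transcripts. Of these 63, 48 passed through both groups, 11 through EtOH alone and 4 through HgCl2 alone, so those 11 and 4 had to differ. Their direction was set by the filter. Called lower among the 11 were RPS14 ENST00000519855, RPS15A ENST00000322989 and ENST00000573554, RPS27L ENST00000330964 and ENST00000482846, and RPS29 ENST00000396020. Called higher among the 4 were RPS23 ENST00000503605 and RPSA ENST00000301821. Called were 26 members, 10 higher and 16 lower in HgCl2, or 15.9% and 25.4% of the 63. Over all 17547 transcripts 32.5% were called, 15.5% higher and 17% lower. The share of members called higher was thus near the background, and whether the share called lower differs from it was not tested. The median log2 fold change of the 63 was 0.00, and that of all tested transcripts was -0.21. On the FPKM scale with limma the calls were 10 higher and 10 lower, against 15.1% and 9.84% of all transcripts. When no column could be under 10 counts, 5 of 38 members were called higher and 11 lower, against 11% and 12.5% of all transcripts so chosen. In 4 of the 26 called members a group mean was at or under 3 counts. The size of their difference is poorly bounded. RPS23 ENST00000503605, with 0 and 0 counts in EtOH and 6 and 4 in HgCl2, was at least 1.84-fold higher against a floor of 3 counts for the group mean, and the interval of its log2 fold change begins at 0.02.

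Of the tested members, 37 had a mean of at least 30 counts in a group. In these, 8 were called higher and 11 lower, or 21.6% and 29.7%, against 21.3% and 13.2% of the 8545 transcripts with such counts. The split by type separated them further. Of the 17 protein-coding members, 4 were called higher and 9 lower, against 12% and 11.3% of the 4566 protein-coding transcripts of all coding genes with such counts. Of the 18 retained introns, 4 were higher and 2 lower, against 39.8% and 11.2% of 1436. By place, 4 of the 7 members with the own stretch in a canonical exon were lower and 1 was higher, against 10.4% and 7.86% over all coding genes. All 3 with a downstream stretch (RPS20, RPS29 and RPS3) were lower, against 14% of 222. Of these lower exonic and downstream members, RPS15A, RPS27L and RPS29 passed the filter through EtOH alone, which set their direction. Of the 27 with an intronic stretch, 7 were higher and 4 lower, against 37.8% and 12.4% of 2653. None of these differences from the background was tested, and both splits were chosen after the data were seen. Of the 18 members not called, 9 had an interval that holds equality, 8 were higher and 1 was lower beyond counting error without reaching 2-fold.

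**Figure D3:**
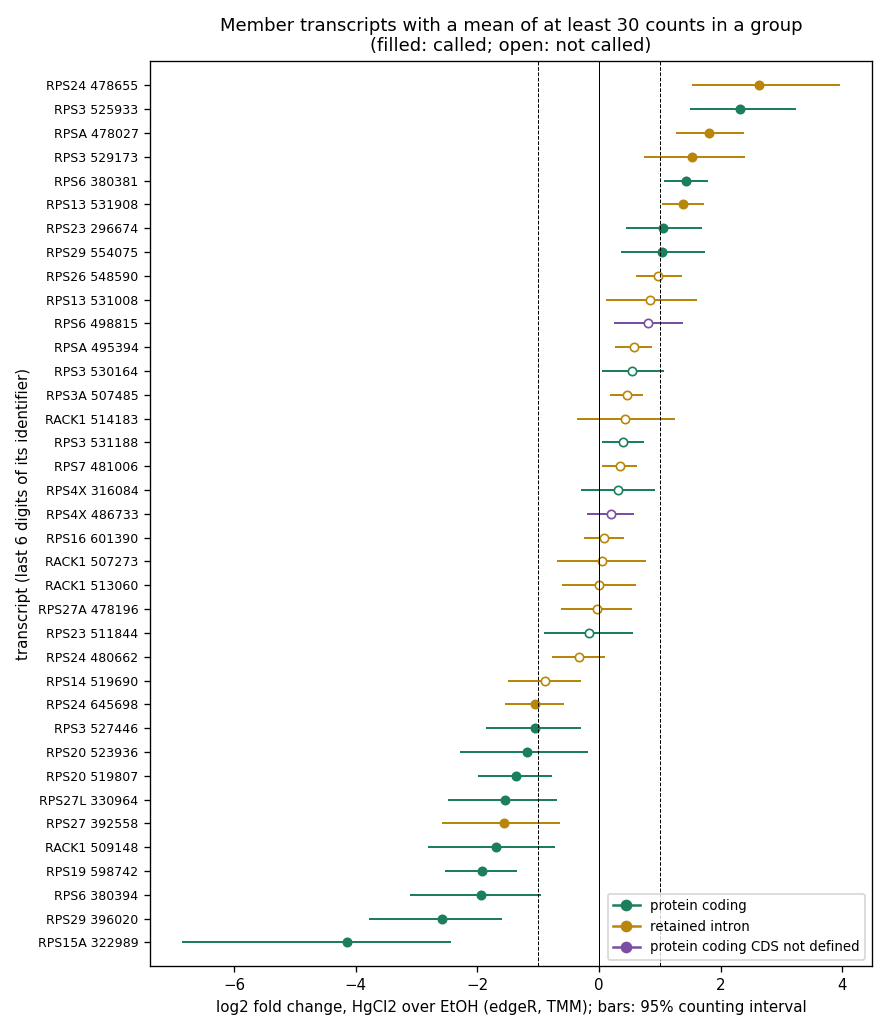
Log2 fold change (HgCl2 over EtOH, edgeR with TMM) of the 37 small-subunit transcripts whose mean reached 30 counts in a group, with 95% counting intervals and coloured by annotated type. Filled points are called, 8 to the right of 1 and 11 to the left of -1, and the point of RPS15A ENST00000322989 rests on 3 and 2 counts in HgCl2 and is no bound.

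Among the proteins of the head of the subunit, RPS3, which lines the entry of the mRNA channel, had 5 tested transcripts. Its canonical ENST00000531188 (chromosome 11 from 75399518 to 75406907 of GRCh38), whose own stretch is at its 3′ end, had 142 and 140 counts in EtOH and 154 and 182 in HgCl2. Its log2 fold change of 0.40 (0.06 to 0.73) is under the threshold. The protein-coding ENST00000525933 had 17 and 14 counts in EtOH and 66 and 75 in HgCl2, a log2 fold change of 2.32 (1.52 to 3.23). ENST00000529173, the retained intron 3 shown above, had 17 and 21 counts and then 44 and 56 (1.53, 0.75 to 2.38). ENST00000527446, which runs downstream of the canonical end, went the other way, from 52 and 51 to 20 and 25 (-1.05, -1.83 to -0.31). RPS3 thus had 2 transcripts called higher and 1 called lower, but the lower call was lost without HgCl2 replicate 1 (-0.89) and on the FPKM scale with limma (-0.74).

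RACK1, a WD-repeat scaffold on the head that binds signalling kinases, had 3 retained introns with no called difference. The one with the most counts, ENST00000513060, had 56 and 52 counts in EtOH and 49 and 49 in HgCl2, and its log2 fold change was 0.00 (-0.58 to 0.59). Its protein-coding ENST00000509148 had 41 and 42 counts in EtOH and 11 and 12 in HgCl2, which was lower by a log2 fold change of -1.70 (-2.79 to -0.74). RPS16, a head protein near the tRNA sites, was counted almost wholly on the retained intron ENST00000601390, with 174 and 181 counts in EtOH and 186 and 153 in HgCl2. The interval of its log2 fold change (0.08) runs from -0.24 to 0.39.

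RPS19, the gene most often mutated in Diamond-Blackfan anaemia, was lower on its canonical transcript. ENST00000598742 (chromosome 19 from 41860255 to 41872925) has 1509 own bases at its 3′ end and had 133 and 143 counts in EtOH and 34 and 32 in HgCl2. Its log2 fold change was -1.92 (-2.52 to -1.36). RPS20, a target of ubiquitination on collided ribosomes, had 92 and 101 counts in EtOH and 38 and 30 in HgCl2 on ENST00000519807 (-1.36, -1.97 to -0.78), and 30 and 33 against 12 and 13 on ENST00000523936 (-1.18, -2.26 to -0.20). Both were called lower, the second not on the FPKM scale with limma (-0.83), and the canonical transcript of RPS20, with 26 and 15 against 9 and 11 counts (-0.88, -2.15 to 0.26), was not called. RPS29, a zinc-binding protein of the head, had a called transcript in each direction. ENST00000396020 (chromosome 14 from 49570984 to 49586376), with 6408 own bases in a row downstream of the canonical end, had 61 and 66 counts in EtOH and 9 and 10 in HgCl2 (-2.58, -3.76 to -1.60). ENST00000554075, whose own stretch lies in an intron and includes 99 coding bases, had 28 and 32 and then 63 and 49 (1.04, 0.38 to 1.73). That higher call was lost when no column could be under 10 counts (0.87), without EtOH replicate 1 (0.95) and without HgCl2 replicate 1 (0.85).

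RPS27A is made as a fusion with ubiquitin. Its retained intron ENST00000478196 had 64 and 54 counts in EtOH and 55 and 49 in HgCl2 (-0.04, -0.61 to 0.52), whereas ENST00000495843 had 23 and 30 and then 9 and 11 (-1.25, -2.48 to -0.17). The other head proteins had few counts. RPS28 was measured on its canonical transcript with 26 and 31 counts in EtOH and 13 and 15 in HgCl2, and its log2 fold change of -0.88 has an interval from -1.92 to 0.09. No transcript of RPS10, RPS12 or RPS18 reached a mean of 30 counts or was called.

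Among the proteins of the body and platform, RPSA, also known as the laminin receptor, had a log2 fold change above 0 on each of its 5 tested transcripts, 2 of which were called higher. ENST00000478027 (chromosome 3 from 39407923 to 39412438), which carries the retained intron 2 shown above, had 41 and 39 counts in EtOH and 126 and 128 in HgCl2, a log2 fold change of 1.81 (1.29 to 2.36). The canonical ENST00000301821, with 104 own bases, had 5 and 5 counts in EtOH and 19 and 27 in HgCl2 (2.32, 0.92 to 4.10). The transcript with the most counts, ENST00000495394, had 185 and 164 and then 225 and 244 (0.57, 0.28 to 0.86), which is under the threshold.

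RPS6, whose phosphorylation by the S6 kinases is a common readout of mTOR signalling, had transcripts in both directions. ENST00000380381 (chromosome 9 from 19378774 to 19380236), a short protein-coding transcript that reads into an intron, had 102 and 92 counts in EtOH and 237 and 235 in HgCl2 (1.42, 1.08 to 1.78). The canonical ENST00000380394, with 258 own bases in its last exon, had 42 and 48 counts and then 11 and 10 (-1.94, -3.08 to -0.97). ENST00000498815, without a defined coding sequence, had 47 and 48 and then 80 and 71 (0.81, 0.27 to 1.37) and was not called.

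RPS24, another Diamond-Blackfan anaemia gene, makes protein forms that differ at the end through alternative splicing of small exons near its 3′ end. Its tested transcripts were all retained introns, and 2 of these with an own stretch in intron 4 differed in opposite directions. ENST00000645698 (chromosome 10 from 78033874 to 78040716) had 135 and 123 counts in EtOH and 54 and 59 in HgCl2 (-1.05, -1.53 to -0.59), a call lost without EtOH replicate 1 (-0.98), without HgCl2 replicate 1 (-0.98) and on the FPKM scale with limma (-0.73). ENST00000478655 (chromosome 10 from 78033863 to 78037883), which starts its own stretch at the donor of that intron, had 7 and 9 counts and then 44 and 47 (2.63, 1.55 to 3.95). ENST00000480662, a single exon that covers the end of the canonical transcript, has its longest own stretch in the last intron of that transcript. It had 112 and 119 and then 92 and 74, and its interval from -0.76 to 0.09 holds equality.

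RPS13, which joins the subunit early in assembly, was higher on the retained intron 3 shown above. ENST00000531908 (chromosome 11 from 17074389 to 17076020) had 116 and 103 counts in EtOH and 265 and 252 in HgCl2 (1.38, 1.05 to 1.72), and ENST00000531008 had 30 and 24 and then 43 and 45 (0.84, 0.12 to 1.60). RPS26, which contacts the mRNA upstream of the start codon, had 103 and 101 counts in EtOH and 190 and 174 in HgCl2 on the retained intron ENST00000548590. Its log2 fold change of 0.98 (0.62 to 1.34) fell just short of the threshold and passed it with DESeq2 (1.02). RPS23, a protein of the decoding centre, had 34 and 39 counts in EtOH and 70 and 68 in HgCl2 on the canonical ENST00000296674 (1.06, 0.46 to 1.68), and this call was lost when no column could be under 10 counts (0.89). Without EtOH replicate 1 (0.96) and on log2(FPKM + 1) with limma (0.94) it was also lost.

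On their main transcript, 3 well-counted genes of the body differed by less than the threshold. RPS3A had 227 and 242 counts in EtOH and 293 and 290 in HgCl2 on ENST00000507485 (0.46, 0.20 to 0.71). RPS7, a protein of the body, had 210 and 238 and then 260 and 253 on ENST00000481006 (0.34, 0.07 to 0.60). RPS4X, the X-linked copy of a gene that also has Y-linked copies, had 129 and 118 and then 141 and 115 on ENST00000486733 (0.19, -0.17 to 0.56). For RPS3A and RPS7 the interval excludes equality, and for RPS4X it holds equality.

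Lower genes of the body and platform included RPS15A, on 2 transcripts. The canonical ENST00000322989 (chromosome 16 from 18781295 to 18790334) had 47 and 55 counts in EtOH and 3 and 2 in HgCl2, a log2 fold change of -4.14 (-6.84 to -2.45). ENST00000573554 had 13 and 8 counts and then 0 and 1, and with so few counts its interval runs from -14.3 to -0.73. RPS14, whose loss marks the 5q deletion syndrome, had 76 and 83 and then 42 and 36 on the retained intron ENST00000519690 (-0.88, -1.48 to -0.31), which was not called. Its ENST00000519855 had 18 and 17 and then 0 and 3 (-3.30, -7.29 to -1.10) and was called lower. RPS27, a zinc-binding protein, had 44 and 44 counts in EtOH and 14 and 13 in HgCl2 on the retained intron ENST00000392558 (-1.55, -2.56 to -0.65). Its paralog RPS27L had 47 and 53 and then 16 and 15 on the canonical ENST00000330964 (-1.54, -2.47 to -0.70), which has 5604 own bases. This call was lost on log2(FPKM + 1) with limma (-0.66). The retained intron of RPS27L, ENST00000482846, had 14 and 24 and then 5 and 5 (-1.76, -3.56 to -0.31). RPS9 had 21 and 21 and then 6 and 5 on ENST00000460761 (-1.77, -3.46 to -0.39). RPS2 had at most 1 count a column over all of its transcripts.

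In 4 genes, RPS3, RPS6, RPS24 and RPS29, one transcript was called higher and another lower. Another 3 genes had only higher calls (RPS13, RPS23 and RPSA) and 9 had only lower calls. Without HgCl2 replicate 1, RPS6 alone of the 4 kept a call in each direction, and on the FPKM scale with limma RPS3 and RPS24 lost their lower call. In each of the 4 genes the intervals of the higher and the lower transcript lie apart. The rule for calling already requires this, so it adds nothing to the calls. For RPS3, RPS6 and RPS29 the higher transcripts have their own stretch in an intron of the canonical transcript, and the lower one has it in the last exon of that transcript (RPS6) or beyond its end (RPS3 and RPS29). In RPS24 both stretches are within intron 4. Counts per 100 own bases, which put transcripts of different own length on one scale, were 17.1 in EtOH and 41.5 in HgCl2 for RPS6 ENST00000380381 and 17.4 and 4.07 for ENST00000380394. On this scale the levels of both were close in EtOH and far apart in HgCl2. On the same scale, RPS24 ENST00000645698 and ENST00000478655 were at 24.2 and 5.97 in EtOH and at 10.6 and 34.0 in HgCl2.

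**Figure D4:**
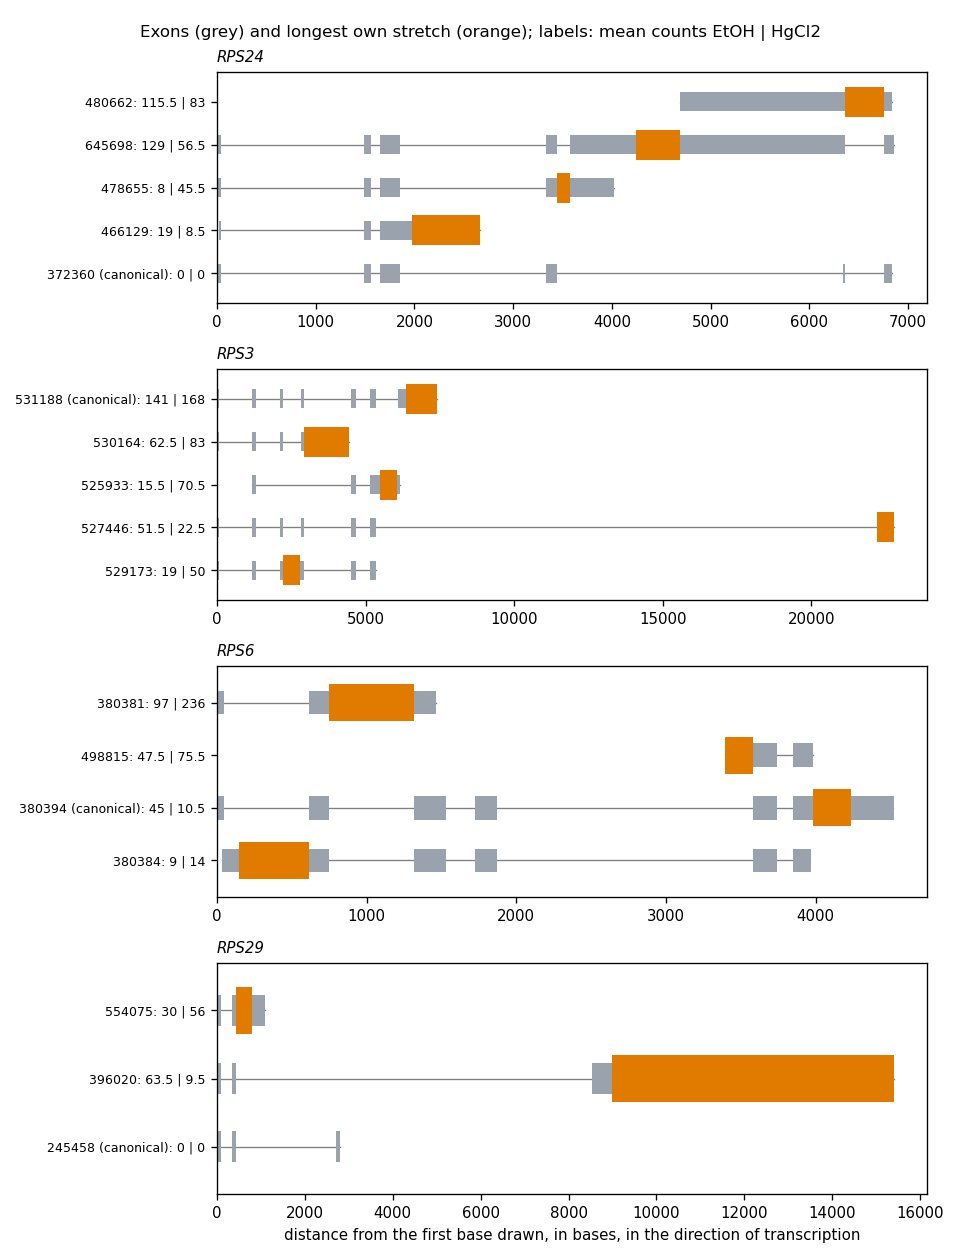
Exons (grey) and longest own stretch (orange) of the tested and canonical transcripts of RPS24, RPS3, RPS6 and RPS29, drawn by distance in bases in the direction of transcription, with each transcript's mean counts in EtOH and HgCl2. The orange stretches of RPS29 ENST00000396020 (63.5 against 9.50) and RPS3 ENST00000527446 (51.5 against 22.5) lie beyond the canonical end, and those of the higher transcripts lie within introns.

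The nearest families were set beside these values without a test. Of 105 tested transcripts of cytosolic large-subunit proteins, 16.2% were called higher and 17.1% lower, with a median log2 fold change of 0.05. Mitochondrial small-subunit proteins, with 47 tested transcripts, gave 14.9% and 17.0% and a median of 0.01. Genes that assemble the small subunit were listed by symbol, and 30 transcripts of 21 of the 31 genes were tested, 2 called higher (6.67%) and 4 lower (13.3%), against 15.5% and 17% of all tested transcripts. EMG1, a methyltransferase of the small-subunit ribosomal RNA, had 207 and 214 counts in EtOH and 88 and 98 in HgCl2 (-1.03, -1.40 to -0.68) on its canonical transcript. KRR1, an early assembly factor, had 2171 and 2127 and then 3730 and 3749 (0.94, 0.87 to 1.02). PNO1, a late assembly factor, had 704 and 658 and then 689 and 671 (0.14, -0.01 to 0.30). The nuclease NOB1 had 184 and 196 and then 122 and 121 (-0.50, -0.84 to -0.17). BYSL, another assembly factor, had 11 and 11 and then 2 and 2 (-2.25, -5.53 to -0.12) and was called lower.

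Among genes that control ribosomal protein synthesis or modify the subunit, 33 transcripts of 12 of the 22 genes were tested, 3 called higher (9.09%) and 2 lower (6.06%), against the same 15.5% and 17%. MTOR, the kinase that promotes translation of ribosomal protein mRNAs, had 118 and 132 counts in EtOH and 36 and 31 in HgCl2 on its canonical transcript (-1.75, -2.35 to -1.20), while its retained intron ENST00000495435 had 32 and 31 and then 40 and 53 (0.70, 0.02 to 1.41). LARP1, which binds the 5′ end of these mRNAs, had 1332 and 1292 and then 947 and 913 (-0.35, -0.48 to -0.23). RPS6KA3, a ribosomal S6 kinase gene, had 2484 and 2463 and then 3076 and 3130 (0.47, 0.39 to 0.55). For MTOR and the other transcripts of this list, the group that carried them through the filter is likewise not given.

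Members share sequence with many processed pseudogenes, and reads of a member mRNA can be counted there. The 518 listed pseudogene transcripts named after a member held 47553 counts in EtOH and 40727 in HgCl2 as means of the columns, 14.7 and 12.1 times the member counts. For 13 of the 36 genes the pseudogenes held more counts than the gene itself in EtOH. RPS3A had 22858 counts on its pseudogenes against 236 on its own transcripts. The pseudogenes of RPS20 had 355.5 counts in EtOH and 717.5 in HgCl2, while the gene was called lower, and those of RPSA had 4011.5 and 1623, while 2 RPSA transcripts were called higher. How far member reads were assigned to pseudogenes was not tested. The counts of RPS3A, RPS7, RPS24, RPSA, RPS2 and RPS23, which have the most such counts, and of RPS20 are uncertain for this reason. So are those of RPS27 and RPS13, with 702.5 and 486 pseudogene counts in EtOH against 44 and 138.5 of their own. The same holds for RPS15A, called lower. Its pseudogenes had 152 counts in EtOH and 172.5 in HgCl2, against 81.5 and 7.5 on the gene.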

How the data were processed

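Counts and FPKM of poly-A RNA from H1299 cells (HgCl2 or EtOH) were taken from 2 tables, whose columns carry the group and replicate number of the sample labels. The authors used Trim Galore 0.6.5 for trimming, STAR 2.5.4b for alignment (GRCh38, Ensembl 98) and Rsubread 2.0.1 to count reads per transcript, and deposited the counts without normalization. Counting options, strand included, are not given in the sources used here, and the study calls its RNA-seq directional although the kit it names does not mark strand, so own bases were counted on both strands. For FPKM, the authors applied DESeq2 1.26.0 to the counts.

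From the counts, log2 fold changes were computed with edgeR 4.0.16 (glmQLFit, TMM, R 4.3.3) for the 17547 transcripts whose mean was above 1 FPKM in EtOH or in HgCl2. Column totals of 4720978 to 5053120 counts limit the precision for members with few counts. Alternatives used DESeq2 1.42.0 and limma 3.58.1, and the remaining steps numpy 2.4.6, pandas 2.3.3 and scipy 1.17.1. The planned edgeR test gave no p-values here, since each group counted as 1 sample. Gene names, transcript types, coordinates and own bases come from GENCODE 44, newer than Ensembl 98, in which 223558 of 227368 identifiers (98.3%) were found. The edgeR step was tested on simulated data.

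Named were, for genes with a mean of at least 30 counts, the transcript with the most counts, every called transcript with a mean of at least 30 counts in a group, and the best-counted transcript of each type. Other transcripts and the genes of the pathway lists were named after their values were seen. Alternatives changed the filter, tool, scale and unit, used a replicate block or left out a column. The members and lists were chosen with earlier results of these data known. Replicate numbers did not pair the columns, and the labels do not say that the columns come from separate cultures. Some genes and 1 sequence are not reported here by name.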

Additional observations from a re-analysis of the deposited data

How the results depend on the processing

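The number of members called depended on the filter and on the unit. When no column could be under 10 counts, 5 members were called higher and 11 lower. On log2(FPKM + 1) in limma, 10 were higher and 10 lower, and on log2(FPKM + 0.1) 12 and 12. With counts summed per gene 1 gene was higher and 7 were lower. The member median relative to all tested transcripts was 0.22. It was 0.11 when no column could be under 10 counts, 0.066 after raising group means of 3 or less to 3, 0.12 with at least 150 own bases in a row, and reversed to -0.14 per gene. Leaving out each column in turn gave 8 to 11 members called higher, 15 to 18 lower, and a median between 0.14 and 0.21. The member share of all counts, a log2 ratio of 0.16, was 0.26 over members never under 10 counts and 0.029 over totals without the mitochondrial genome, and 0.14 to 0.17 without each column. The cause of these shifts was not tested.

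The replicate block left 10 higher, 16 lower and a median of 0.22, and changed none of the 30 named transcripts. Replicate differences of the groups had a correlation of 0.01 over 11891 transcripts, so the numbers give no pairing. Of the named transcripts, calls changed under at least one setting for RPS3 ENST00000527446, RPS14 ENST00000519690, RPS20 ENST00000523936, RPS23 ENST00000296674, RPS24 ENST00000645698, RPS26, RPS27L ENST00000330964 and RPS29 ENST00000554075. Without EtOH replicate 1, the calls of RPS23 ENST00000296674 (0.96), RPS24 ENST00000645698 (-0.98) and RPS29 ENST00000554075 (0.95) were lost. Without HgCl2 replicate 1, the calls of RPS3 ENST00000527446 (-0.89), RPS24 ENST00000645698 (-0.98) and RPS29 ENST00000554075 (0.85) were lost. Few counts per member limit which differences are detectable.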
